A study of Mus musculus with 12 samples.

Results

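Transcripts of 10 circadian clock genes were examined in colonic intestinal epithelial cells of mice: Arntl, Clock, Npas2, Per1, Per2, Per3, Cry1, Nr1d1, Nr1d2 and Dbp. They were chosen by symbol, and all 10 were found among the 46517 gene identifiers of the count tables. The cells came from colons of C57BL/6 mice, either wild-type (WT) or of the genotype Nfkb2-/- (knockout, KO). Nfkb2 encodes p100, the precursor of the NF-kB protein p52. At 7 to 9 weeks of age the mice stayed untreated or received DSS (dextran sulfate sodium, which damages the lining of the colon) for 48 h, with 3 samples in each of the 4 groups. The labels give no driver or cell type for the Nfkb2 deletion and no time of day for the collection of any sample, so the group and the hour of collection cannot be told apart. All WT libraries carry lower library numbers than the KO libraries, so library order and genotype cannot be told apart either.

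In the molecular clock, BMAL1 (encoded by Arntl) pairs with CLOCK or NPAS2 and switches on genes that carry E-box elements, among them the Per, Cry and Nr1d genes. PER and CRY proteins then repress that pair, and REV-ERBα (Nr1d1) and REV-ERBβ (Nr1d2) repress Arntl, Npas2 and other genes through response elements that they share with the ROR receptors. DBP activates D-box genes such as the Per genes, in opposition to NFIL3. In the gut, epithelial clocks are known to follow feeding as well as the light cycle, and Arntl transcripts run roughly opposite in phase to those of Nr1d1 and Dbp.

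Total counts were 5595909 to 8117740 per sample, so that 3 counts, taken here as the floor of detection, correspond to 0.370 to 0.536 CPM (counts scaled to a common library size, here with edgeR's TMM factors except for the floor). Nfkb2 had 87 to 143 counts in the 6 KO libraries and 211 to 346 in the 6 WT libraries, a difference of -1.31 in mean log2 CPM (exact two-sided permutation test, p = 0.00216, the smallest this design gives). Reads of the gene thus remained in KO, and the labels do not say which part is deleted. The summed level of 12 epithelial markers such as Epcam and Krt8 was 36838 to 45079 CPM in untreated WT, 30288 to 31311 in WT under DSS, 31581 to 33355 in untreated KO and 28452 to 30653 in KO under DSS. These markers did not move alike. Group means in that order were 7068, 1395, 2552 and 1626 CPM for Car1 and 2891, 2802, 2706 and 2543 for Epcam. They were 12678, 11683, 11204 and 10152 CPM for Krt8 and 4842, 4385, 3618 and 5864 for Muc2. These genes were picked after their values were seen. The summed level of 12 leukocyte markers was 82.4 to 108 CPM in untreated WT, 221 to 241 in WT under DSS, 161 to 175 in untreated KO and 216 to 252 in KO under DSS. Most of that sum was Cd14, which had 65.2 to 79.0, 166 to 188, 110 to 119 and 134 to 139 CPM in the same order. The other 11 leukocyte markers, separated from Cd14 after the values were seen, summed to 17.2 to 29.0, 52.4 to 55.0, 46.1 to 64.6 and 77.5 to 118 CPM. The 10 stromal and endothelial markers summed to 2.47 to 7.87, 7.20 to 8.05, 7.27 to 13.3 and 15.3 to 20.0 CPM, with Pdgfra at 0 counts in every library. Untreated WT had the highest epithelial sum, and KO under DSS had the highest sums of the 11 leukocyte markers and of the stromal markers, with no overlap with the other groups in each case. Under DSS, Cd14 was lower in KO than in WT, as was the group mean of Itgam (3.51 against 5.72 CPM). Those of Lyz2 (25.5 against 7.08 CPM), Csf1r (10.8 against 4.37) and Cd68 (3.39 against 2.77) were higher in KO. The cell type behind the Cd14 reads was not tested. Replicates of a group differed by more than sampling noise, and the labels call them biological replicates without naming the animals.

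Short stretches near the transcription start of 4 members are shown because they hold matches to DNA elements that clock proteins are known to bind. Cry1, Per3 and Arntl are among the members that changed in the results that follow, and Per1 is not. Promoter windows from RefSeq (build GRCm38.p6), 250 bases before to 50 bases after a start, were found for 9 of the 10 members (all but Per2), 13 windows in all. Both strands were searched for the E-box CACGTG, the D-box TTATGTAA or TTACGTAA, and the ROR and REV-ERB core TAGGTCA or TGGGTCA, and no matches overlapped. Capitals mark the matches, each sequence is on the gene's own strand from 5′ to 3′, and the start is counted as base 1 with no base 0. The Cry1 stretch (chr10:85185055-85185304, minus strand) has an E-box from base -60, the Per1 stretch (chr11:69098699-69098948, plus strand) has one from base -166, the Per3 stretch (chr4:151044666-151044915, minus strand) has D-boxes from bases -205 and -158, and the Arntl stretch (chr7:113207530-113207558, plus strand) has a REV-ERB core from base 31.
Cry1: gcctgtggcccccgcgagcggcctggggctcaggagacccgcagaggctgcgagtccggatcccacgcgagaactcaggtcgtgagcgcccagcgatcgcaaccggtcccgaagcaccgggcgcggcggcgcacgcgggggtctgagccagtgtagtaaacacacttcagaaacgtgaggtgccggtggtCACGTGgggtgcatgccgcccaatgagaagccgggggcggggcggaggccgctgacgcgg
Per1: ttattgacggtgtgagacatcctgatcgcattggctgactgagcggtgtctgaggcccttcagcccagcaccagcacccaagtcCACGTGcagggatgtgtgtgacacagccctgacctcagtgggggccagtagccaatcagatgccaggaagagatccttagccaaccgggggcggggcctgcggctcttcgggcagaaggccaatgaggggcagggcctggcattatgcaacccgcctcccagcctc
Per3: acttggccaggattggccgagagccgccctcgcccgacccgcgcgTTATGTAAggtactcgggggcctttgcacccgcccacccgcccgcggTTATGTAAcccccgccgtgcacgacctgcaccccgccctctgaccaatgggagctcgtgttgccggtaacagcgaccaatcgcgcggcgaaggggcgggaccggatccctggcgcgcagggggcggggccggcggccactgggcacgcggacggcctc
Arntl: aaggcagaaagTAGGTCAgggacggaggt
The E-box was in 2 of the 13 member windows and in 7.15% of the 32851 windows of all genes. The D-box was in 1 member window and in 1.06% of all windows, and the REV-ERB core was in 1 member window and in 6.45%. These letters were not found in the windows of Clock, Npas2, Nr1d1, Nr1d2 and Dbp, nor in a further window each of Arntl and Per1. A match describes the sequence only.

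Per kilobase of exon, Nr1d1 was the most abundant member, with a mean of 33.0 CPM per kb over the 12 libraries. Arntl (11.4 CPM per kb), Cry1 (8.66), Clock (6.62), Nr1d2 (6.61) and Npas2 (6.23) followed on the same scale. The Per genes lay close together, with Per1 at 1.504, Per2 at 1.49 and Per3 at 1.43 CPM per kb. Dbp was lowest at 0.166 CPM per kb, and its 0 to 9 counts per library did not pass the low-count filter, so 9 of the 10 members were tested.

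**Figure D1:**
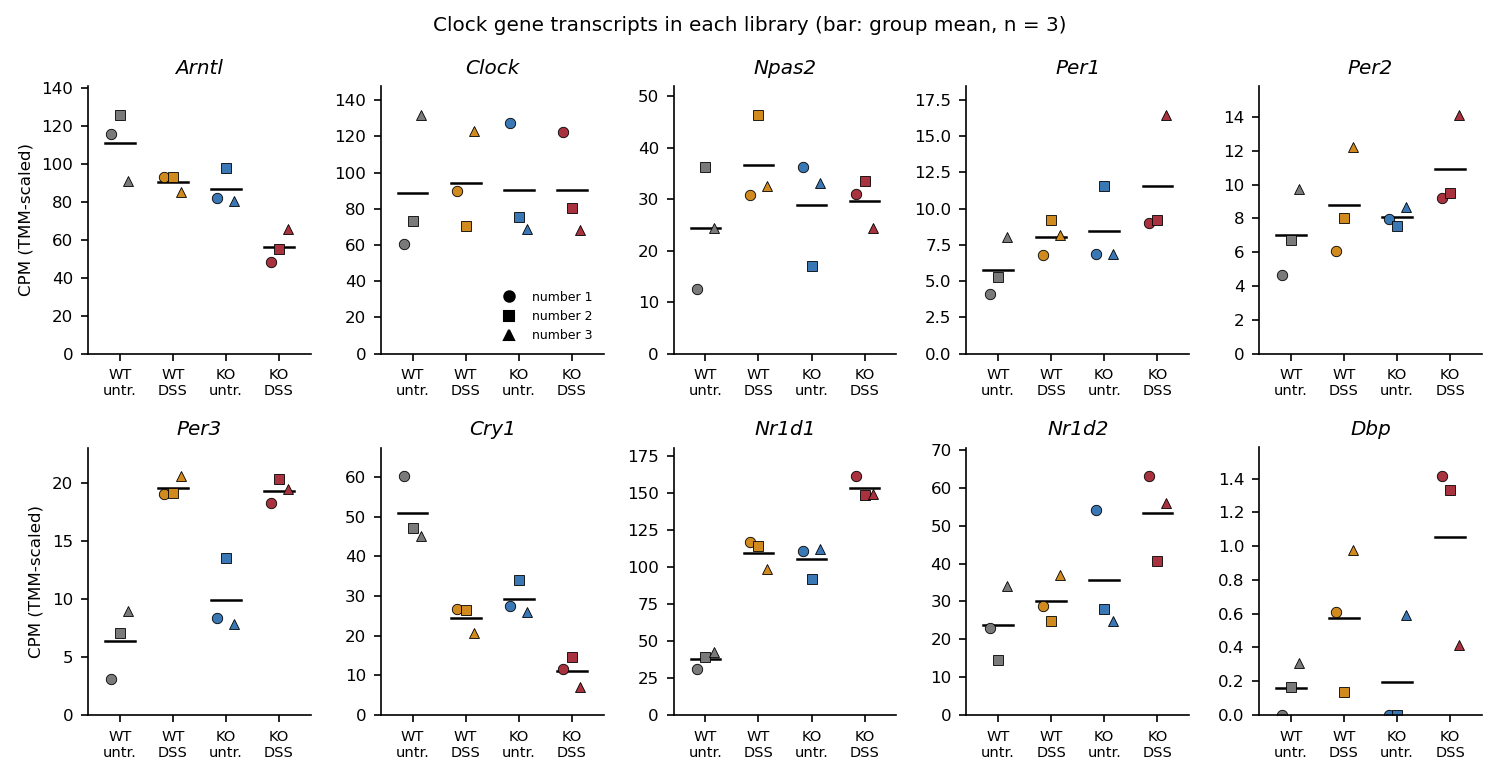
TMM-scaled CPM of the 10 members (1 panel each, y axis in CPM from 0) in untreated (untr.) and DSS-treated WT and KO libraries. Each symbol is 1 library, its shape gives the replicate number and the bar is the group mean (n = 3); Nr1d1 is lowest and Cry1 highest in all 3 untreated WT libraries, while the 4 groups of Clock overlap.

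Across the 9 tested members, DSS and genotype went with changes in 4: Nr1d1, Cry1, Per3 and Arntl. Each comparison below was fitted over all 12522 tested genes by edgeR's quasi-likelihood test, with p-values adjusted over all of them by Benjamini-Hochberg, and a gene passed at an adjusted p under 0.05. Under DSS in WT, Nr1d1 and Per3 rose and Cry1 fell, 3 of 9 members, where 6.3% of all tested genes passed (2.8% higher, 3.5% lower). Under DSS in KO, Nr1d1 rose and Arntl and Cry1 fell, 3 of 9, where 3.92% of all genes passed (1.88% higher, 2.04% lower). In untreated mice only Nr1d1 of the 9 differed between genotypes, being higher in KO (1 of 9, where 3.48% of all genes passed, 1.72% higher and 1.76% lower). Under DSS, Arntl and Cry1 were lower in KO than in WT (2 of 9, where 3.11% of all genes passed, 1.77% higher and 1.34% lower). The DSS change differed between genotypes in 1 of 9 members, Nr1d1, being smaller in KO (1.7% of all genes passed, 1.17% higher and 0.527% lower). Groups did not overlap in 3 of 9 members for DSS in WT (20.6% of all genes) and 5 for DSS in KO (24.3%). The genotypes did not overlap in 2 of 9 untreated (19.3% of all genes) and 4 under DSS (22.3%). Comparisons that share a group, such as DSS in WT and KO against WT in untreated mice, share its 3 libraries, so their values are given side by side and were not compared further. The median log2 fold change of the 9 members was 0.34 for DSS in WT, 0.44 for DSS in KO, 0.24 for KO against WT in untreated mice and -0.02 under DSS, while that of all tested genes was 0.01, 0.02, 0.00 and 0.00.

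**Figure D2:**
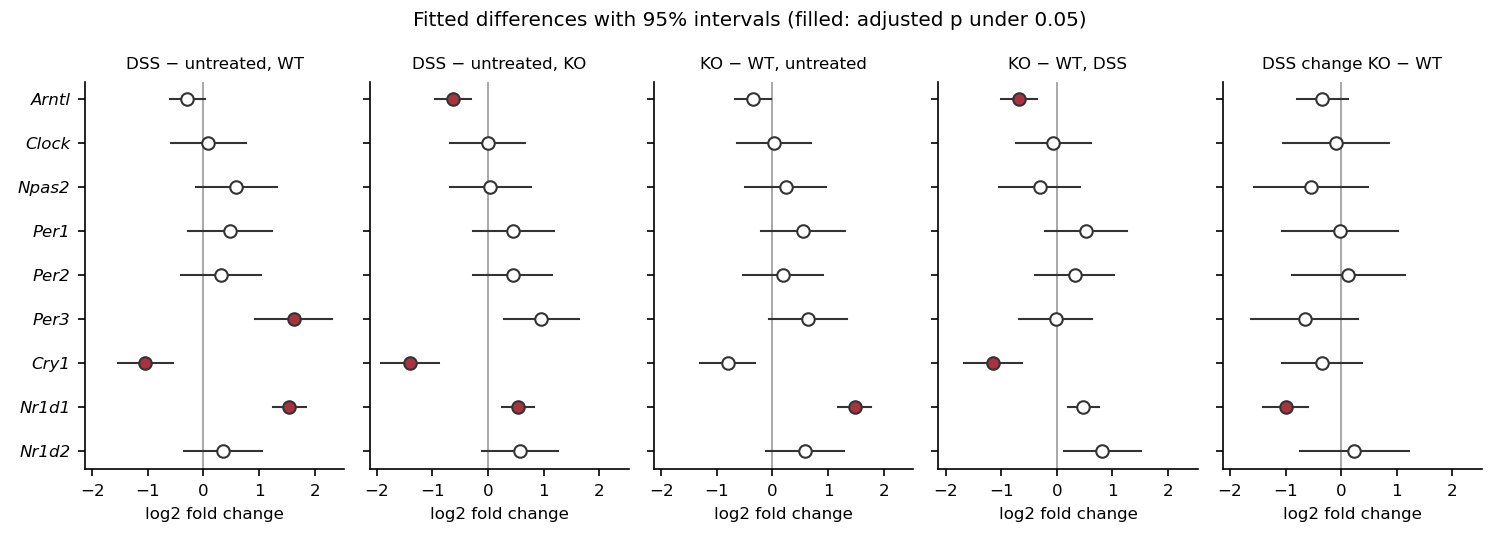
Fitted log2 fold change (x axis) of the 9 tested members for DSS against untreated in WT and in KO, KO against WT untreated and under DSS, and the DSS change in KO minus that in WT. Lines are 95% intervals and filled points passed at an adjusted p under 0.05; the largest filled values are Per3 (1.62) and Nr1d1 (1.54) under DSS in WT, and the intervals of Clock reach well to both sides of 0 in all 5 panels.

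The repressors of Arntl were examined first. Nr1d1 (ENSMUSG00000020889.11, chromosome 11 from 98767932 to 98775333, minus strand, GRCm38) encodes the nuclear receptor REV-ERBα. Its level was 31.0, 39.4 and 42.8 CPM in untreated WT libraries 1, 2 and 3. The values were 117, 114 and 98.7 CPM in WT under DSS, and 110.8, 92.2 and 112 CPM in untreated KO. In KO under DSS they were 161, 149 and 149 CPM. Untreated WT was thus lowest and KO under DSS highest, with no overlap with any other group, while WT under DSS and untreated KO overlapped. With DSS, Nr1d1 rose 2.91-fold in WT (log2 fold change 1.54 with SE 0.14, edgeR adjusted p = 5.50e-06). It rose less in KO, 1.46-fold (log2 0.54 with SE 0.13, edgeR adjusted p = 0.0341), and the DSS change in KO minus that in WT was -0.999 on the log2 scale (95% interval -1.41 to -0.59, edgeR adjusted p = 0.0119). In untreated mice the gene was 2.79-fold higher in KO than in WT (log2 1.48 with SE 0.14, edgeR adjusted p = 2.07e-05). Under DSS the genotype difference was 0.48 on the log2 scale (95% interval 0.19 to 0.76) and did not pass (edgeR adjusted p = 0.0732), although the groups did not overlap.

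The Nr1d1 increase in WT, its genotype difference in untreated mice and the difference between the DSS changes passed in all 12 fits that left out 1 library. The increase in KO did not pass in every fit. Deviations of same-numbered samples from their group means correlated weakly in that comparison, at 0.106 to 0.204, and the labels state no pairing. With the replicate number as a blocking factor, the increase in KO had an edgeR adjusted p of 0.0638. It also missed the threshold without WT under DSS library 1 or 2, any untreated KO library or any KO library under DSS, with edgeR adjusted p of 0.0530 to 0.173 and log2 fold changes of 0.45 to 0.59. Under DSS the genotype difference passed without untreated WT library 1 or 3 (edgeR adjusted p = 0.0378 and 0.0423). The exons of Nr1d1 overlap those of Thra, a thyroid hormone receptor gene on the opposite strand, by 263 bases, and the library method does not mark strand, so reads there cannot be told apart. Thra had 57 to 147 counts and Nr1d1 had 213 to 1077. The log2 fold change of Thra was 0.71 under DSS in WT, 0.09 under DSS in KO, 0.15 between untreated genotypes and -0.46 between genotypes under DSS, with edgeR adjusted p-values of 0.254, 0.930, 0.898 and 0.557. The sum of the 11 leukocyte markers other than Cd14, a split made after the values were seen, was lowest in untreated WT and highest in KO under DSS. WT under DSS and untreated KO overlapped in that sum, as they did for Nr1d1. The sum of all 12 leukocyte markers did not have this order, with 216 to 252 CPM in KO under DSS and 221 to 241 in WT under DSS. Within the 11, Jchain, Cd79a and Itgam had lower means in KO than in WT under DSS. In these bulk samples fewer cells of a type and less RNA per cell cannot be told apart, and the part of leukocyte RNA in the Nr1d1 values was not tested.

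Nr1d2 (ENSMUSG00000021775.10, chromosome 14 from 18204054 to 18239127, minus strand) encodes REV-ERBβ, the close relative of REV-ERBα. It had 22.9, 14.4 and 34.0 CPM in untreated WT libraries 1 to 3 and 28.7, 24.9 and 37.0 CPM in WT under DSS. In KO the values were 54.1, 28.1 and 25.0 CPM untreated and 63.1, 40.6 and 56.1 CPM under DSS. Of the 4 comparisons of 2 groups, WT and KO under DSS were the pair that did not overlap, and that difference of 0.82 on the log2 scale (95% interval 0.13 to 1.51) did not pass (edgeR adjusted p = 0.234). Its other log2 fold changes were 0.34 and 0.58 for DSS in WT and KO and 0.58 for KO against WT in untreated mice. The 95% interval for DSS in WT, -0.36 to 1.04, included 0 and did not include the value of Nr1d1 (1.54); the difference between the 2 genes was not tested.

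The negative limb of PER and CRY proteins held the member that fell most. Cry1 (ENSMUSG00000020038.9, chromosome 10 from 85131700 to 85185064, minus strand) encodes cryptochrome 1, a strong repressor of CLOCK and BMAL1. Its level was 60.2, 47.2 and 45.1 CPM in untreated WT libraries 1 to 3 and 26.7, 26.4 and 20.5 CPM in WT under DSS. Untreated KO libraries had 27.5, 33.9 and 26.0 CPM and KO libraries under DSS had 11.7, 14.5 and 7.07 CPM. The order of the groups was the reverse of that of Nr1d1: untreated WT was highest, KO under DSS lowest, and the other two groups overlapped between them. DSS lowered Cry1 in WT (log2 fold change -1.05 with SE 0.23, edgeR adjusted p = 0.0128) and in KO (-1.40 with SE 0.24, edgeR adjusted p = 0.00468). These changes differed by -0.35 (95% interval -1.06 to 0.37, edgeR adjusted p = 0.837), an interval that leaves room for a sizeable difference either way.

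Under DSS, Cry1 was lower in KO than in WT (log2 fold change -1.15 with SE 0.24, edgeR adjusted p = 0.0191). In untreated mice the KO libraries also lay below all WT libraries, with a log2 fold change of -0.80 (SE 0.23) that did not pass (edgeR adjusted p = 0.0733). That value passed with DESeq2 (adjusted p = 0.0173), with no filter on low counts (edgeR adjusted p = 0.0239) and without KO library 3 under DSS (edgeR adjusted p = 0.0387). The fall in WT missed the threshold without untreated WT library 1 (edgeR adjusted p = 0.0530) or WT library 3 under DSS (0.0721). The genotype difference under DSS missed it without WT library 1 or 2 or KO library 1 or 3 under DSS (edgeR adjusted p = 0.0552 to 0.0866). The fall in KO passed in all 12 fits with 1 library left out and under the block of replicate numbers (edgeR adjusted p = 0.00344).

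Per3 (ENSMUSG00000028957.11, chromosome 4 from 151003652 to 151044665, minus strand) encodes the PER protein regarded as least needed for the core loop. It had 3.06, 7.05 and 8.96 CPM in untreated WT libraries 1 to 3, and 19.0, 19.1 and 20.5 CPM in WT under DSS. In KO it had 8.35, 13.5 and 7.84 CPM untreated and 18.2, 20.3 and 19.4 CPM under DSS. Both DSS groups lay above both untreated groups, and the 2 genotypes overlapped within each treatment. The rise with DSS in WT was 3.08-fold (log2 1.62 with SE 0.33, edgeR adjusted p = 0.00671) and passed in all 12 fits with 1 library left out. In KO the log2 fold change was 0.96 (95% interval 0.29 to 1.63) and did not pass (edgeR adjusted p = 0.119), but it did with DESeq2 (adjusted p = 0.0487) and without untreated WT library 1 (edgeR adjusted p = 0.0366). The 2 DSS changes were not shown to differ (difference -0.66, 95% interval -1.62 to 0.30, edgeR adjusted p = 0.698).

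Per1 (ENSMUSG00000020893.16, chromosome 11 from 69095217 to 69109960, plus strand) and Per2 (ENSMUSG00000055866.9, chromosome 1 from 91415982 to 91459324, minus strand) encode the PER proteins central to the loop, and Per1 is also induced quickly by glucocorticoids and other signals. Per1 had 4.08, 5.25 and 8.03 CPM in untreated WT libraries 1 to 3, 6.83, 9.20 and 8.15 in WT under DSS, 6.87, 11.6 and 6.89 in untreated KO, and 9.02, 9.19 and 16.5 in KO under DSS. Per2 had 4.66, 6.73 and 9.73 CPM in untreated WT, 6.07, 8.0 and 12.2 in WT under DSS, 7.94, 7.57 and 8.67 in untreated KO, and 9.19, 9.49 and 14.1 in KO under DSS. For both genes each group overlapped the next in order of mean, although all 3 KO libraries under DSS lay above the untreated KO libraries for Per2. Neither passed in any comparison. Their log2 fold changes under DSS were 0.48 and 0.31 in WT and 0.46 and 0.44 in KO, with 95% intervals that all spanned 0 and reached 1.04 to 1.24, at 28 to 119 counts of Per1 and 32 to 102 of Per2 a library. A doubling, a log2 fold change of 1, lay within these intervals.

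On the positive limb, Arntl (ENSMUSG00000055116.7, chromosome 7 from 113207465 to 113314126, plus strand) encodes BMAL1, the partner of CLOCK and NPAS2. Its level was 115, 126 and 90.7 CPM in untreated WT libraries 1 to 3 and 93.1, 93.1 and 85.3 CPM in WT under DSS. In KO it was 82.1, 97.8 and 80.4 CPM untreated and 48.1, 54.9 and 65.4 CPM under DSS. KO under DSS was below all other libraries, and the other 3 groups overlapped in order. DSS lowered Arntl in KO (log2 fold change -0.63 with SE 0.15, edgeR adjusted p = 0.0317), and under DSS it was lower in KO than in WT (-0.69 with SE 0.15, edgeR adjusted p = 0.0238). In WT the DSS change was -0.29 (95% interval -0.61 to 0.03, edgeR adjusted p = 0.349), and the difference between the DSS changes, -0.34, did not pass (95% interval -0.79 to 0.12, edgeR adjusted p = 0.661). A fall restricted to KO is therefore not shown.

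Both Arntl calls lay close to the threshold. With the replicate number as a block, the fall in KO had an edgeR adjusted p of 0.0506, and 1 of the 3 members, Cry1, still passed in that comparison. The fall in KO was also lost without WT library 1 under DSS, any untreated KO library, or KO library 1 or 2 under DSS (edgeR adjusted p = 0.0517 to 0.149). The genotype difference under DSS was lost without any WT library under DSS or KO library 1 or 2 under DSS (edgeR adjusted p = 0.0580 to 0.101). The log2 fold changes in those fits remained between -0.53 and -0.73.

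Clock (ENSMUSG00000029238.10, chromosome 5 from 76209868 to 76304792, minus strand), the histone acetyltransferase partner of BMAL1, had nearly equal group means of 88.6 to 94.2 CPM. Its libraries nonetheless ranged widely: 60.6, 73.3 and 132 CPM in untreated WT, 89.6, 70.3 and 123 in WT under DSS, 128, 75.2 and 68.7 in untreated KO, and 122, 80.4 and 68.2 in KO under DSS. All 4 groups overlapped, the log2 fold changes in the 5 comparisons lay between -0.09 and 0.09, and the 95% intervals of the 4 comparisons of 2 groups lay between -0.74 and 0.76. Npas2 (ENSMUSG00000026077.14, chromosome 1 from 39193731 to 39363236, plus strand), which can stand in for CLOCK, had 12.5, 36.3 and 24.4 CPM in untreated WT and 30.8, 46.4 and 32.5 in WT under DSS. It had 36.2, 17.0 and 33.2 CPM in untreated KO and 30.9, 33.5 and 24.4 in KO under DSS. These groups overlapped too, and its largest log2 fold change, 0.59 for DSS in WT, did not pass (95% interval -0.14 to 1.32, edgeR adjusted p = 0.425).

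Dbp (ENSMUSG00000059824.9, chromosome 7 from 45705088 to 45710203, plus strand), a PAR-bZIP output factor whose transcript swings strongly over the day in many tissues, was barely detected. Libraries 1 to 3 had 0, 1 and 2 counts in untreated WT, 4, 1 and 6 in WT under DSS, 0, 0 and 5 in untreated KO, and 8, 9 and 3 in KO under DSS. The 3 libraries together gave 3, 11, 5 and 20 counts in that order of groups. Neighbouring groups overlapped, most libraries were at or near the floor of 3 counts, and no fold change was computed. The gene also shares 539 exon bases with Sphk2 on the opposite strand.

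The balance between the repressor Nr1d1 and its target Arntl shifted across the groups. There were 0.269, 0.313 and 0.472 Nr1d1 counts per Arntl count in untreated WT libraries 1 to 3 and 1.25, 1.23 and 1.16 in WT under DSS. Untreated KO had 1.35, 0.943 and 1.40 and KO under DSS had 3.36, 2.71 and 2.28. Cry1 counts per Nr1d1 count ran the other way, at 1.05 to 1.94 in untreated WT, 0.208 to 0.232 in WT under DSS, 0.232 to 0.368 in untreated KO and 0.0474 to 0.0977 in KO under DSS. Gene lengths are not divided out, so these ratios compare libraries, not genes. They are a description of the 3 genes above and add no test.

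**Figure D3:**
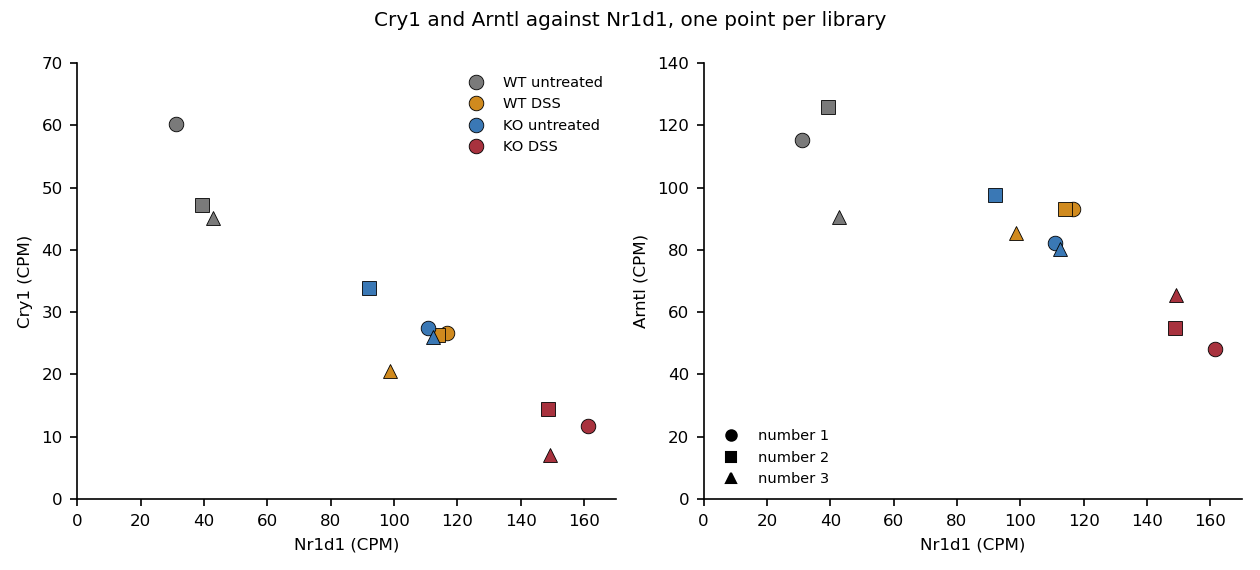
Cry1 (left, y axis in CPM) and Arntl (right, y axis in CPM) against Nr1d1 (x axis in CPM), 1 point per library, coloured by group and shaped by replicate number. Untreated WT libraries lie at 31.0 to 42.8 CPM of Nr1d1 with the highest Cry1, KO libraries under DSS lie at 149 to 161 CPM with the lowest Cry1 and Arntl, and the 2 other groups share the middle.

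Replicate numbers 1 to 3 recur in every group, and the labels do not say what they stand for. No member differed by number in edgeR's quasi-likelihood test with group in the model (0 of 9, beside 0% of 12522 genes), where 312 genes had an unadjusted p under 0.05 and DESeq2 also called 0. The unadjusted p was 0.0315 for Per2 and 0.0466 for Nr1d2, and the edgeR adjusted p was 0.994 for both. Per2 was highest in library 3 of every group, as were 117 of the 12522 genes (0.934%). Cry1 was lowest in library 3 of every group, as were 214 genes (1.71%), and Per1 in library 1 of every group, as were 118 genes (0.942%).

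Clock and Nr1d2 peaked in the same library of all 4 groups, number 3 in both WT groups and number 1 in both KO groups. Of the 36 pairs of tested members, this was the 1 pair that did so. Among all tested genes, 663 (5.29%) had their highest libraries in these same 4 places, and their median exon length was 7.81 kb, against 4.31 kb for all tested genes. Clock has 13.7 kb of exon and Nr1d2 has 5.41 kb. The part of transcript length or RNA integrity in this pattern was not tested. The highest library exceeded the lowest of its group by up to 2.18-fold for Clock and 2.35-fold for Nr1d2, and by up to 2.93-fold for Per3 and 2.89-fold for Npas2. Arntl and Nr1d1 varied least within groups, by up to 1.39-fold and 1.38-fold.

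**Figure D4:**
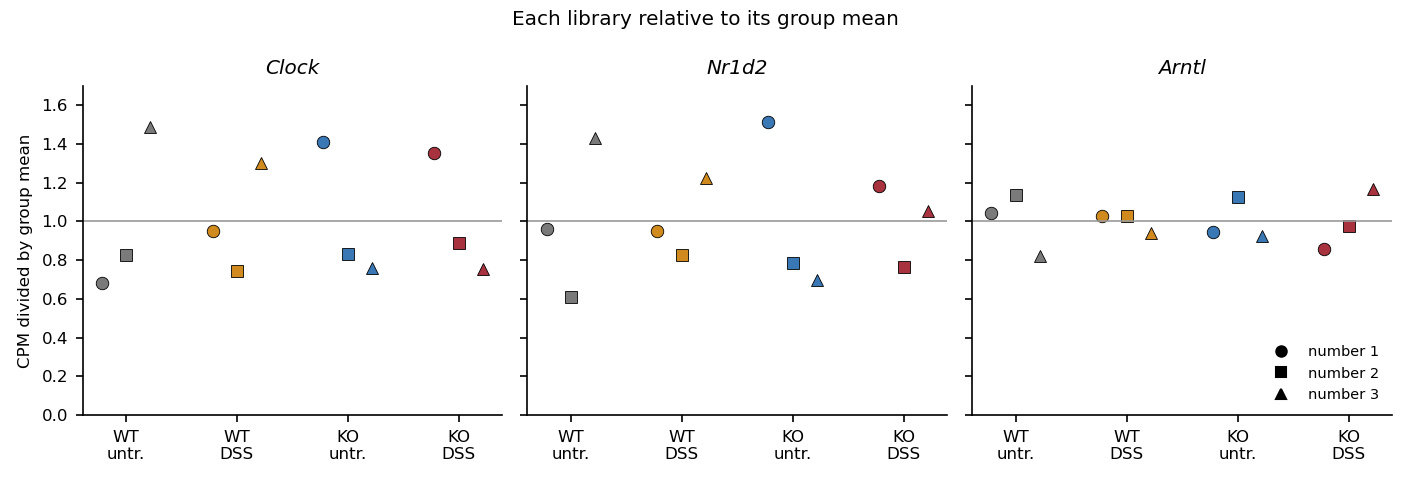
CPM of each library divided by its group mean (y axis) for Clock, Nr1d2 and Arntl in the 4 groups, with symbol shape for the replicate number and the grey line at 1. Clock and Nr1d2 are highest in library 3 of both WT groups and library 1 of both KO groups, and Arntl stays closer to 1.

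A wider list of 20 clock genes and regulators was read from the same fits. Of these, 15 were tested, and Bhlhe41, Rora, Ciart, Hlf and Fbxl21 had too few counts (0 to 17). DSS in WT changed 1 of 15, beside 6.3% of all tested genes: Cipc, an inhibitor of CLOCK, fell from 125, 149 and 118 CPM to 91.7, 96.5 and 98.2 CPM (log2 fold change -0.45 with SE 0.11, edgeR adjusted p = 0.0262). DSS in KO changed 1 of 15, beside 3.92% of all: Usp2, a deubiquitinase with strong daily rhythms, fell from 35.4, 34.0 and 32.7 CPM to 18.6, 21.5 and 21.6 CPM (-0.73 with SE 0.17, edgeR adjusted p = 0.0260). Under DSS, 1 of 15 (beside 3.11% of all genes called in either direction), again Usp2, was lower in KO than in WT, where it had 39.6, 42.4 and 45.5 CPM (-1.05 with SE 0.17, edgeR adjusted p = 0.00323). None of the 15 passed between untreated genotypes (3.48% of all) or for the difference between DSS changes (1.7% of all).

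The medians of these 15 log2 fold changes were -0.13 and 0.16 for DSS in WT and KO, and -0.04 and -0.12 for KO against WT untreated and under DSS, while those of all tested genes lay within 0.02 of 0. Nfil3, the repressor of D-box genes, had log2 fold changes of 1.06 and 0.95 under DSS in WT and KO and did not pass (edgeR adjusted p = 0.204 and 0.298). Cry2, the partner of Cry1, stayed between -0.55 and 0.30 in the comparisons of 2 groups without passing. The Usp2 difference under DSS passed in all 12 fits with 1 library left out. The Usp2 fall in KO missed the threshold with the replicate number as a block (edgeR adjusted p = 0.0506) and without any 1 of the 6 KO libraries (0.0634 to 0.102). The Cipc fall missed it without untreated WT library 2 or any WT library under DSS (edgeR adjusted p = 0.0728 to 0.118), with no filter on low counts (0.0625) and with only the compared groups (0.113).

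**Figure D5:**
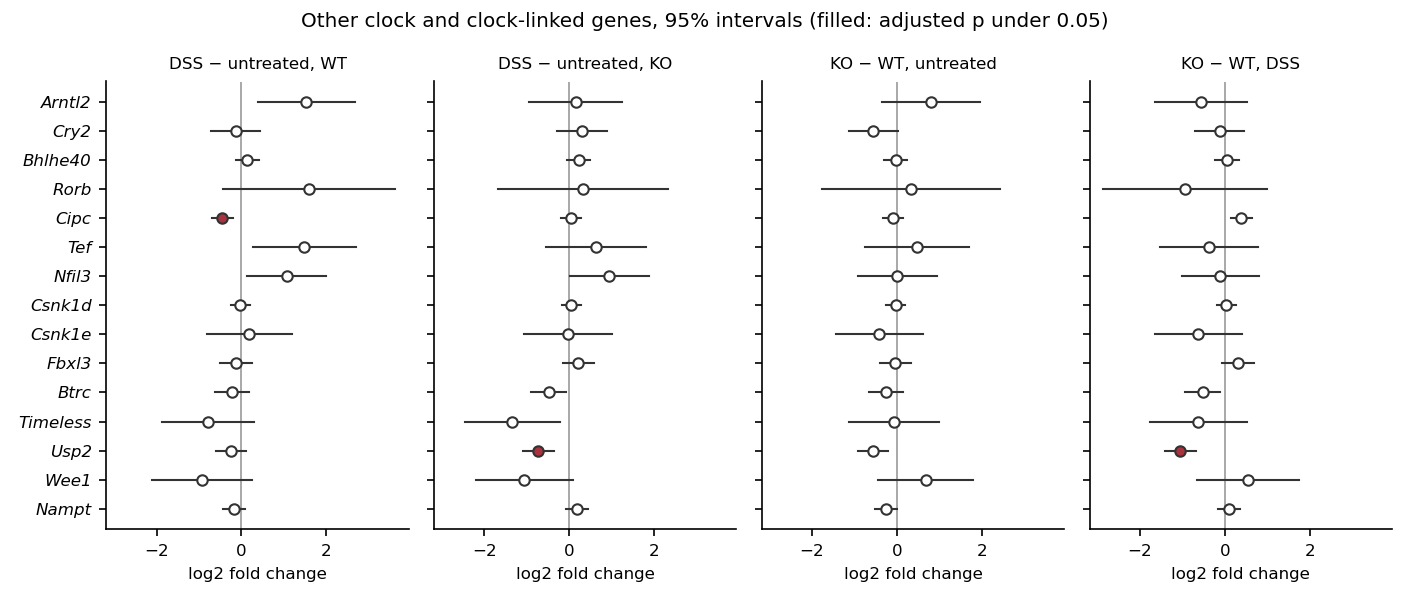
Fitted log2 fold change (x axis) with 95% intervals of the 15 tested genes of the wider clock list in the 4 comparisons of 2 groups. Filled points passed at an adjusted p under 0.05: Cipc in the first panel, and Usp2 in the second and the fourth.

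Signals that can reset Per genes, and the cell makeup, were read from the same fits. Of 10 glucocorticoid-responsive genes, 1 rose (Dusp1) and 4 fell (Sgk1, Zbtb16, Cdkn1a, Tsc22d3) under DSS in WT, where 6.3% of all tested genes passed. In KO 1 rose (Dusp1) and 2 fell (Sgk1, Cdkn1a) under DSS, where 3.92% of all passed. The medians of the 10 were -0.43 and 0.04. Between genotypes Dusp1 was higher and Tsc22d3 lower in untreated KO (3.48% of all genes passed), and Sgk1 was higher and Cdkn1a lower in KO under DSS (3.11%). Several of these calls were lost when 1 of the 12 libraries was left out. Under DSS in WT, Zbtb16 passed in 6 of the 12 such fits, Tsc22d3 in 9 and Cdkn1a in 10, and Zbtb16 also missed with the replicate block (edgeR adjusted p = 0.0665). Under DSS in KO, Dusp1 passed in 7. Between untreated genotypes Dusp1 passed in 6 and Tsc22d3 in 2, the latter also missing with the replicate block (edgeR adjusted p = 0.0722). Under DSS, Sgk1 passed between genotypes in 3 and missed with the replicate block (edgeR adjusted p = 0.0686). The calls of Sgk1 and Dusp1 under DSS in WT, of Sgk1 and Cdkn1a under DSS in KO and of Cdkn1a between genotypes under DSS passed in all 12. Fitted on the compared groups alone, Zbtb16, Cdkn1a and Tsc22d3 under DSS in WT missed the threshold (edgeR adjusted p = 0.108, 0.0687 and 0.0549), as did Dusp1 and Tsc22d3 between untreated genotypes (0.145 and 0.173) and Sgk1 between genotypes under DSS (0.0980). Beside the same shares of all genes, 8 of 14 tested immediate-early and heat-shock genes rose under DSS in WT and 6 in KO. None fell, and the medians were 0.83 and 0.51. Between genotypes 2 of the 14 were higher and 1 lower in untreated KO and 2 were lower in KO under DSS. Of these calls, Fosb in WT and Fos, Jun and Atf3 in KO passed in 11, 11, 6 and 5 of the 12 fits without 1 library, and Junb between untreated genotypes and Dnajb1 between genotypes under DSS in 10 each. Fitted on the compared groups alone, Fos under DSS in WT (edgeR adjusted p = 0.101) and Junb and Nr4a1 between untreated genotypes (0.107 and 0.0602) missed it. Their part in the Per1 and Per3 values was not tested.

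The marker counts that follow stand beside 6.3% of all tested genes passing for DSS in WT and 3.92% for DSS in KO. Between genotypes 3.48% of all passed untreated and 3.11% under DSS. Of 12 epithelial markers, 4 fell under DSS in WT, among them Krt20 (-1.33) and Car1 (-2.34), and 5 fell and 1 rose in KO. In WT 11 of the 12 log2 fold changes lay below 0, but some were small. WT group means, untreated and under DSS, were 2891 and 2802 CPM for Epcam, 1642 and 1667 for Cdh1 and 6319 and 6043 for Krt19. Between genotypes 2 of the 12 were lower in untreated KO, and under DSS 2 were higher and 1, Vil1, was lower. DSS raised 4 of 10 tested leukocyte markers, a list that includes Cd14, in WT and 1 in KO. Of the same 10, untreated KO had 4 above WT and DSS-treated KO had 2 above WT, and in these comparisons none was lower. Of 3 tested stromal markers, none changed with DSS and Vim was higher in KO in both treatments. Some epithelial and leukocyte markers thus changed in each comparison in which Nr1d1, Cry1 or Arntl did, the epithelial ones in both directions between genotypes under DSS. The tested stromal markers changed only between genotypes. The part of cell makeup in the values of Nr1d1, Cry1 and Arntl was not tested.

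The genes most like 2 members in profile were taken from 8852 genes of higher level by Pearson's r of log2 CPM over the 12 libraries, as a description. For Arntl they included Gpi1 (r = 0.952), Slc25a13 (0.946) and Vil1 (0.946), and each had its highest group mean in untreated WT and its lowest in KO under DSS. Without the 2 libraries farthest from the median of Arntl these values of r were 0.914 to 0.944. Vil1, the microvillus protein villin, went from 893 CPM in untreated WT to 501 in KO under DSS. For Dbp they were Tbck (0.866), Nrbp2 (0.854), Fam13a (0.847) and B4galt3 (0.830), with the limit that Dbp had only 0 to 9 counts. Without the 2 libraries farthest from the median of Dbp these values fell to 0.802, 0.745, 0.735 and 0.714. Tbck had similar group means of 73.4, 74.9, 70.9 and 84.0 CPM in untreated WT, WT under DSS, untreated KO and KO under DSS. Chosen after its values were seen, Nr1d1 was compared in the same way and was most like Herpud1 (0.978), Icam1 (0.976), B3gnt7 (0.976) and Adh1 (0.954). Icam1, the gene of an intercellular adhesion molecule, had group means of 1.88, 14.5, 11.9 and 22.7 CPM in untreated WT, WT under DSS, untreated KO and KO under DSS. The points share group, library and depth.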

How the data were processed

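RNA from 12 samples of EDTA-detached colonic epithelial cells was sequenced after SMART-seq2 and Nextera XT preparation, per the labels' protocols, without molecular identifiers or strand marking. Each deposited table holds 1 sample's read counts per gene, not normalized, and the submitters' processing notes name STAR 2.5.2b, featureCounts 1.5.0 and the builds GRCm38 and mm10. The annotation release and the handling of multi-mapping reads are not given in the sources used here. The 46517 identifiers were matched without version to GENCODE M21, which gave symbols for 46005 and left 512 without one, and coordinates are those of GRCm38.

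Groups came from the titles. Genes were filtered by filterByExpr (12522 kept, 99.8% of counts), scaled by TMM and fitted with 1 coefficient per group over all 12 samples in edgeR 4.0.16 (R 4.3.3). Two-sided quasi-likelihood F tests were adjusted by Benjamini-Hochberg at 0.05. Log2 CPM used a prior count of 2, and intervals are 95%. DESeq2 1.42.0, edgeR with size factors of the DESeq2 kind, no low-count filter, only the compared groups, a replicate block and leaving out each library were the alternatives. In data simulated over 12228 genes, with changes put into WT under DSS only, the fit for DSS in WT recovered 44.9% of log2 changes of size 1. It recovered 82.3% of size 2 and made 7 false calls.

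All 10 members are named in every comparison, as are Nfkb2, genes of the wider clock list that passed, and the 4 genes most like Arntl and the 4 most like Dbp among tested genes whose mean log2 CPM was 3 or more; other genes are named as examples of their lists after their values were seen. Some results that this rule selects are not reported here, and the wider clock list is given without them. The members and lists were chosen with earlier results of these data known.

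The labels state no pairing, and the replicate numbers were used to look for one. Same-numbered untreated and DSS libraries of a genotype also carry consecutive library numbers, such as 8519 and 8520 for WT number 1 and 8525 and 8526 for KO number 1. What this order stands for is not given. Deviations of same-numbered samples from group means correlated at 0.204, 0.106 and 0.127 for DSS in KO, above 0.1 for every number, so blocked values stand beside those results where they changed a call. P-values measure the spread between these samples, and floors cover counting error only.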

Additional observations from a re-analysis of the deposited data

Results flagged for a closer look

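The DSS change differed between genotypes by edgeR's test of the difference itself in 3 genes among the members and the wider clock, glucocorticoid and stress lists. Of all tested genes, 1.7% passed that test. For Nr1d1 the DSS change in KO minus that in WT was -0.999 on the log2 scale (SE 0.19, edgeR adjusted p = 0.0119), from a rise of 1.54 in WT and 0.54 in KO, and all 3 KO libraries under DSS lay above all other libraries. For Sgk1, a kinase gene induced by glucocorticoids, the difference was 0.82 (SE 0.16, edgeR adjusted p = 0.0156), from changes of -2.31 in WT and -1.49 in KO, and it missed the threshold without WT library 2 or 3 under DSS, untreated KO library 1 or 3, or KO library 3 under DSS (edgeR adjusted p = 0.0502 to 0.0552). For Hspa1a, a heat-shock chaperone gene, the difference was 1.91 (edgeR adjusted p = 0.00173), with group means of 41.6, 51.6, 4.11 and 19.2 CPM in untreated WT, WT under DSS, untreated KO and KO under DSS. Hspa1b, a near-identical copy, had 2 to 14 counts, so reads may have been split between the copies and the Hspa1a values are uncertain.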

How the results depend on the processing

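Counts of members and of all genes moved with several settings, and the cause was not tested. Of 9 members, 2 rather than 1 differed between untreated genotypes with DESeq2 or with no filter on low counts, 4 rather than 2 under DSS with only the compared groups, and 1 rather than 3 changed for DSS in KO under the replicate block, which changed no other member's call. With DESeq2, 782, 740, 634 and 355 genes passed for, in this order, DSS in KO, genotype in untreated mice, genotype under DSS and the difference between DSS changes, where the reported fit had 491, 436, 390 and 213. With no filter these were 776, 703, 642 and 356, and 2 genes differed by replicate number where the reported fit had 0. The fit with no filter tested 23136 genes and the reported fit 12522, and DESeq2 was also run without the low-count filter. These counts are therefore not shares of the same set of genes. With only the compared groups, 467 genes passed for DSS in WT (789 as reported) and 195 for KO against WT untreated (436). The replicate block gave 695, 409, 345, 290 and 186 genes in the 5 comparisons, in the order above with DSS in WT first. In the comparisons other than DSS in KO, same-numbered samples did not correlate above 0.1 for every number.

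Leaving out 1 library gave 2 to 3 passing members for DSS in WT, 1 to 4 for DSS in KO, 1 to 2 for KO against WT untreated, 0 to 3 under DSS and 1 for the difference between DSS changes. The genes passing ranged over 483 to 958, 235 to 710, 212 to 725, 160 to 566 and 152 to 350, and 0 differed by replicate number. Where a group was left with 2 libraries, the spread was pooled over all groups. Values that did not pass changed sign in these fits: Clock ranged from -0.15 to 0.49 for DSS in WT, -0.29 to 0.32 for DSS in KO, -0.30 to 0.43 and -0.34 to 0.17 for KO against WT untreated and under DSS, and -0.50 to 0.23 for the difference between DSS changes. Npas2 ranged from -0.23 to 0.24 for DSS in KO and -0.082 to 0.64 for KO against WT untreated, Per3 from -0.062 to 0.024 for KO against WT under DSS, and Per2 from -0.034 to 0.51 for KO against WT untreated. For the difference between DSS changes, Per1 ranged from -0.37 to 0.27, Per2 from -0.18 to 0.44 and Nr1d2 from -0.11 to 0.66. Clock for DSS in KO was -0.01 as reported, 0.00065 with only the compared groups and 0.0032 under the replicate block. Nr1d1 under DSS passed between genotypes with DESeq2 (adjusted p = 0.0252) and with only the compared groups (edgeR adjusted p = 0.0261), as did Nr1d2 with no filter (0.00893) and with only the compared groups (0.0460). Depth limits Dbp (0 to 9 counts) and the Per genes (21 to 143) most.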
